A study of Mus musculus with 24 samples.

Results

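The genes described here encode 8 enzymes of phenylalanine and tyrosine breakdown, among 22355 genes counted in mouse liver. They were taken as the rows of the count table whose gene symbol was Qdpr, Pcbd1, Gch1, Tat, Hpd, Hgd, Gstz1 or Fah. Each symbol had 1 row, and all 8 genes were among the 11508 that passed the filter on low counts. RNA was sequenced from the livers of 24 diet-induced obese mice in 3 groups of 8. Every mouse had been injected for 4 d, in the treated groups with IUB288, the code name of a compound that activates the glucagon receptor, and otherwise with vehicle. IUB288 livers were taken 22 h or 4 h after the last injection, and vehicle livers 22 h after it, so the 4 h livers had no vehicle group of their own time. The labels used here gave no strain, sex, age or dose.

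Phenylalanine is hydroxylated to tyrosine in the liver, with tetrahydrobiopterin as the cofactor, and tyrosine is then broken down to fumarate and acetoacetate. Gch1 encodes GTP cyclohydrolase, which starts the synthesis of tetrahydrobiopterin, while Pcbd1 and Qdpr encode the dehydratase and the dihydropteridine reductase that regenerate it after use. Tyrosine loses its amino group to tyrosine aminotransferase (Tat), whose product 4-hydroxyphenylpyruvate is converted to homogentisate by the dioxygenase Hpd. The homogentisate ring is opened by the dioxygenase Hgd, the product is isomerised by maleylacetoacetate isomerase (Gstz1), and fumarylacetoacetate hydrolase (Fah) makes the final cut. Glucagon and glucocorticoids are long known to raise tyrosine aminotransferase in liver. The series holds liver transcriptomes 4 h and 22 h after the last injection of a glucagon receptor agonist, beside vehicle.

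Positions are those of RefSeq on GRCm38.p6, and exons are counted in the longest matching GENCODE transcript. Tat lies on chromosome 8 from 109986078 to 109999804 on the plus strand and has 12 exons. Hpd lies on chromosome 5 from 123171807 to 123182723 on the minus strand, with 14 exons. Hgd spans 37579742 to 37632026 of chromosome 16 on the plus strand, also with 14 exons. Gstz1 was placed on chromosome 12 from 87147161 to 87164723, plus strand, and Fah on chromosome 7 from 84585159 to 84605942, minus strand. Gch1 lies on chromosome 14 from 47153895 to 47189413 on the minus strand, with 6 exons. Qdpr is on chromosome 5 from 45434032 to 45450229, minus strand, and Pcbd1 on chromosome 10 from 61089331 to 61094329, plus strand. Counts cover each whole gene.

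Tat, Hpd, Hgd and Gch1 were called higher at both times, and their 4 h livers did not overlap the vehicle livers. Qdpr was also called higher at both times, but its 4 h and vehicle livers overlapped. This rule only picks the genes shown, and the share of all tested genes that meet it is not given. The promoter windows of the 4 members that met it follow. Each runs from 250 bases before to 50 bases after the transcript start used in the RefSeq promoter table on GRCm38.p6, 5′ to 3′ on the gene's strand. That start lies 4358 bases inside the gene's span given above for Tat and 411 bases inside it for Hgd, and at the end of the span for Hpd and Gch1. Capitals mark CCAAT or TGACG, a short form of the cAMP response element, read on either strand (ATTGG and CGTCA are the other strand). The windows are chr8:109990186-109990485 for Tat on the plus strand, chr5:123182674-123182973 for Hpd on the minus strand, chr16:37579903-37580202 for Hgd on the plus strand and chr14:47189364-47189663 for Gch1 on the minus strand.
Tat: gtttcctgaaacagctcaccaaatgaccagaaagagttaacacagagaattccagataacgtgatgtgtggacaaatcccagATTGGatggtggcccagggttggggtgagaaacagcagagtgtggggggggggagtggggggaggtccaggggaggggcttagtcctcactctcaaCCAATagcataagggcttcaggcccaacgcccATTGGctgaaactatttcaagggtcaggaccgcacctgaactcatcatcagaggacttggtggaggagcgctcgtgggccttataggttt
Hpd: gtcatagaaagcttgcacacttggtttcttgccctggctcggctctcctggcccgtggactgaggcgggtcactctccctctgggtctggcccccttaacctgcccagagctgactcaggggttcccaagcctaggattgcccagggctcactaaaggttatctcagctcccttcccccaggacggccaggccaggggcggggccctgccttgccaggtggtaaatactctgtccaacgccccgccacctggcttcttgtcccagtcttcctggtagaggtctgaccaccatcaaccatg
Hgd: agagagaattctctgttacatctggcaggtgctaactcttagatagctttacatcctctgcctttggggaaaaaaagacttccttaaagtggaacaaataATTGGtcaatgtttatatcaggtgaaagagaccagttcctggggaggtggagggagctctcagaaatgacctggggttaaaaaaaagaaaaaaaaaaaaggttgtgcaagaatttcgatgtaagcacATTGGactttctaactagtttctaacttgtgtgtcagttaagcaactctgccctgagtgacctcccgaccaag
Gch1: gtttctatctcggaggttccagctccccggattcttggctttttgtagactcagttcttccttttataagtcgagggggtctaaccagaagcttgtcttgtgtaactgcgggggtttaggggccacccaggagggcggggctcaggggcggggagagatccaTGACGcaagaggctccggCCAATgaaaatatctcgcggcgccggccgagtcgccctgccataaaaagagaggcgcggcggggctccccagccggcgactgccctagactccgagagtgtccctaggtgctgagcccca

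All 8 members matched the RefSeq promoter table, with 9 windows in all since Gstz1 had 2. The whole cAMP response element, TGACGTCA, was in the window of 0 of 8 members, and in 1.79% of the 32851 promoter windows of all genes. Its short form TGACG, which the whole element also contains, was in the Gch1 window at position -88 from the start and in a Gstz1 window, and in 20.8% of all windows. CCAAT was in the windows of 5 of 8 members (Tat 3 times, Hgd, Qdpr and Gch1, and both Gstz1 windows), against 37.4% of all windows. TATAAA was in 3 members (13.6% of all windows), TTNNGNAA, a loose C/EBP-like pattern, in 4 (40.7%), the glucocorticoid-receptor motif TGTTCT in Qdpr only (19.0%) and the E box CACGTG in none (7.15%). No motif of these was shared by the 4 genes shown, and the Hpd window held none of them. Such matches describe the letters in these windows only.

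Library totals ran from 13.99 to 44.07 M counts. Liver marker genes such as Alb were high in all 24 libraries: 10 hepatocyte markers summed to 69600 to 94100 CPM at 22 h, 75000 to 100000 CPM at 4 h and 74900 to 119000 CPM in vehicle (89000 to 119000 CPM without vehicle replicate 1), with none at 0. CPM are counts per M counts in the genes that passed the filter, with these library sizes scaled by the trimmed mean of M values (TMM). The library labelled vehicle replicate 1 stood apart. Ucp1, a gene of brown fat, reached 1390 CPM there, while the other libraries had 0.576 CPM or less. The sum of 7 adipocyte markers was 4320 CPM there, while the others had 75.7 CPM or less. Where leaving it out changed a member's call, a count of list genes called against vehicle or a range of marker sums printed here, both values are given. Replicates were separate mice.

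**Figure D1:**
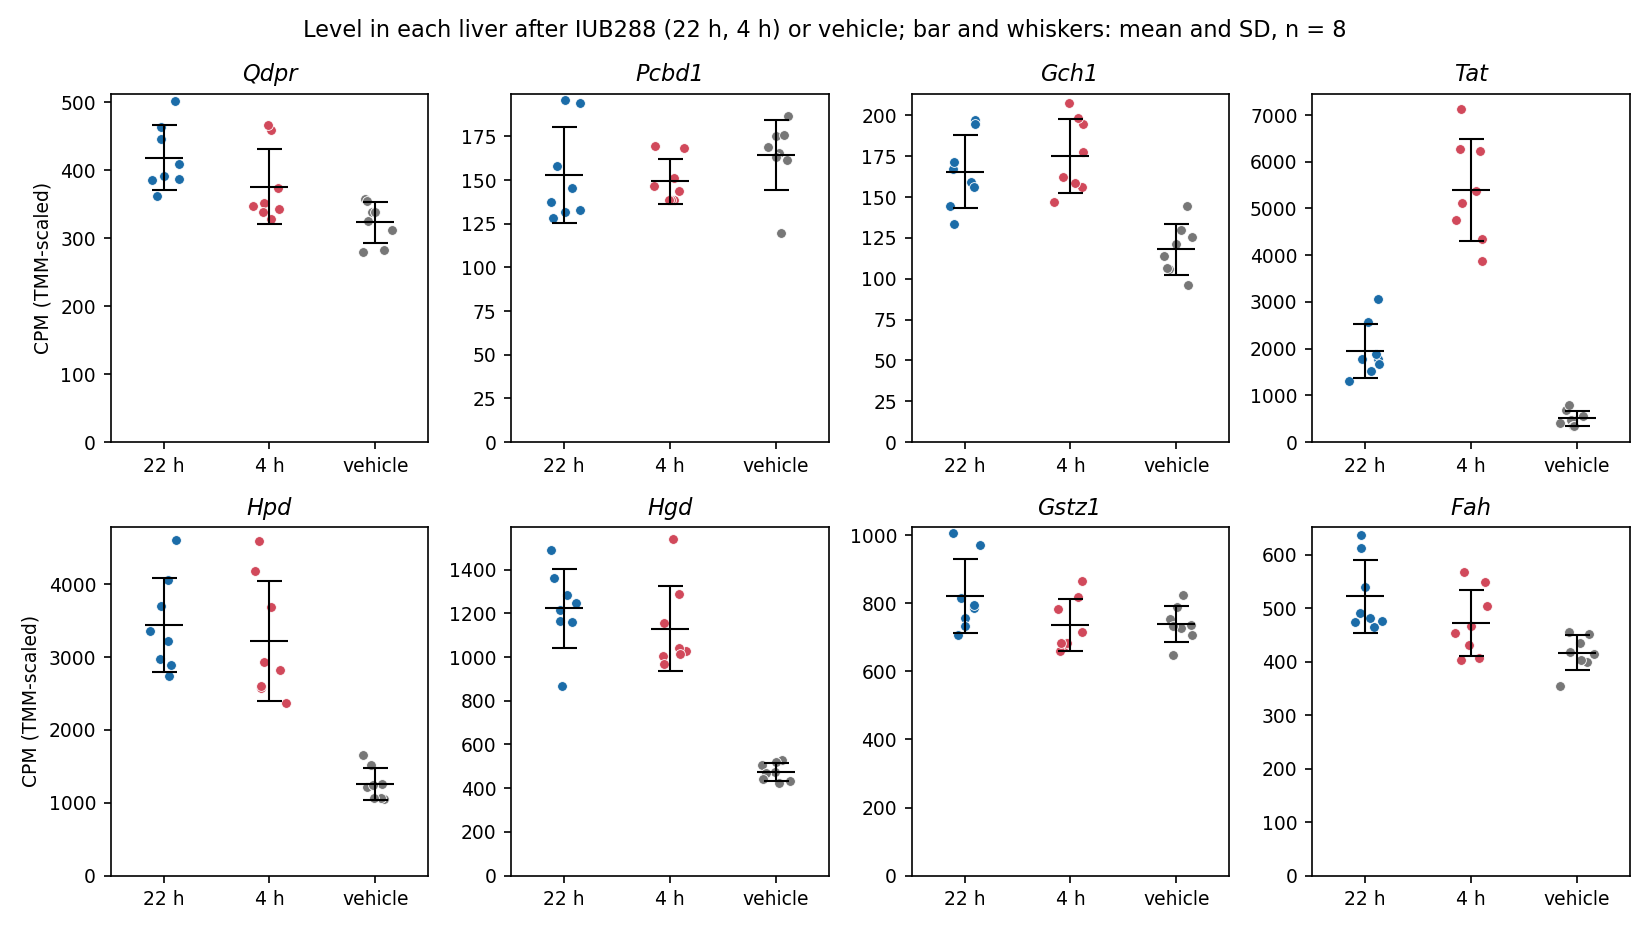
Level of each of the 8 genes in every liver, as TMM-scaled CPM on a linear axis from 0, for IUB288 22 h, IUB288 4 h and vehicle. Points are livers, and the bar and whiskers are the mean and SD of 8. Tat is highest at 4 h with 3 separate groups of points, Hpd and Hgd are about equally high at both IUB288 times, and the groups of Gstz1 and Pcbd1 overlap.

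At 4 h after the last IUB288 injection, 5 of the 8 genes were called higher than in vehicle (Tat, Hpd, Hgd, Gch1 and Qdpr), none was called lower, and 3 were not called (Fah, Gstz1 and Pcbd1). Over all tested genes 21.7% were called higher and 22.5% lower in that comparison. At 22 h, 6 were called higher, the same 5 and Fah, and none lower, where 17.6% of all tested genes were called higher and 19.2% lower. Between 22 h and 4 h, 1 member, Tat, was called lower and none higher, where 14.3% of all genes were called higher and 15% lower. The members' median log2 fold change was 0.39 at 4 h and 0.43 at 22 h against vehicle, beside -0.07 and -0.02 over all genes. A call is an adjusted p under 0.05 in the limma-voom model, with Benjamini-Hochberg adjustment over all tested genes. The 8 vehicle livers served in the 4 h and in the 22 h comparison, so those values are not independent. In whole liver, fewer cells of a type and less RNA per cell cannot be told apart. Overlap of livers between groups is described here for the members only, with no share over all tested genes beside it.

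Tat, the enzyme that commits tyrosine to breakdown, differed most among the members. Its level at 22 h was 1300, 1779 and 3060 CPM (lowest, median and highest liver). In the 4 h livers it was 3868, 5254 and 7121 CPM, and in vehicle livers 335.9, 472.5 and 797.8 CPM. All 3 groups were separate: every 4 h liver was above every 22 h liver, and every 22 h liver above every vehicle liver. Tat averaged 5387 ± 1093 CPM at 4 h and 512.2 ± 161.6 CPM in vehicle (SD, n = 8 each), a log2 fold change of 3.42 ± 0.18 (SE; 10.7-fold, limma adjusted p = 2.31e-13). By p it was gene 16 of the 11508 in that comparison. At 22 h it averaged 1946 ± 579.3 CPM, still 3.8-fold above vehicle (log2 1.92 ± 0.18, limma adjusted p = 9.85e-09). The 22 h level was 0.355 times the 4 h level, a log2 change of -1.49 ± 0.19 (limma adjusted p = 9.23e-07). Tat was thus lower at 22 h than at 4 h and above vehicle at both times.

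Hpd and Hgd, which act directly after Tat, were higher at both times, and neither was called different between 22 h and 4 h. Hpd ranged over 2737, 3294 and 4608 CPM at 22 h (lowest, median and highest liver). It ranged over 2369, 2878 and 4588 CPM at 4 h and over 1050, 1236 and 1659 CPM in vehicle. Every IUB288 liver of either time was above every vehicle liver, while the 22 h and 4 h livers overlapped. The log2 fold change of Hpd against vehicle was 1.34 ± 0.13 at 4 h (2.53-fold, limma adjusted p = 1.27e-08) and 1.45 ± 0.14 at 22 h (2.73-fold, adjusted p = 1.3e-08). Between 22 h and 4 h its difference was 0.11 on the log2 scale with a 95% interval from -0.17 to 0.40 (limma adjusted p = 0.583).

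Hgd had 866.4, 1232 and 1490 CPM at 22 h as its lowest, median and highest liver. At 4 h these were 968.3, 1033 and 1539 CPM, and in vehicle 421.8, 472.4 and 528.4 CPM. Again the IUB288 livers of each time lay wholly above the vehicle livers, and the 2 times overlapped. The log2 fold change was 1.24 ± 0.09 at 4 h (2.36-fold, limma adjusted p = 1.11e-10) and 1.36 ± 0.10 at 22 h (2.56-fold, adjusted p = 1.02e-10). At 22 h Hgd was gene 18 by p, ahead of Tat at 64 and Hpd at 66. Between 22 h and 4 h the difference was 0.12 with a 95% interval from -0.08 to 0.32 (limma adjusted p = 0.405).

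Of the enzymes of the last steps, Fah was called higher at 22 h, and Gstz1 was not called in any comparison. Fah had 465.1, 486.6 and 638.1 CPM at 22 h (lowest, median and highest liver), 404, 461.4 and 567.2 CPM at 4 h and 354.7, 416.6 and 456.4 CPM in vehicle. The 22 h livers all lay above the vehicle livers, and 4 of the 8 livers at 4 h did. At 22 h Fah was 1.25-fold above vehicle (log2 0.32 ± 0.08, limma adjusted p = 0.00301). At 4 h its log2 difference was 0.18, with a 95% interval from 0.01 to 0.34, and it was not called (limma adjusted p = 0.0759). That 4 h value passed the threshold without IUB288 4 h replicate 5 (adjusted p = 0.0432) or replicate 7 (0.0417), by limma in both cases.

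Gstz1 was between 708.2 and 1006 CPM at 22 h, between 660.4 and 866.7 CPM at 4 h and between 647.8 and 824.3 CPM in vehicle, with medians of 791, 700.2 and 734.4 CPM. The 3 groups overlapped. Its log2 difference from vehicle was -0.01 at 4 h, with a 95% interval from -0.16 to 0.14, and 0.14 at 22 h, with an interval from -0.01 to 0.30 (limma adjusted p = 0.92 and 0.133). The upper ends of these intervals correspond to a level 1.10-fold above vehicle at 4 h and 1.23-fold above it at 22 h. In its difference between 22 h and 4 h, 0.15, it was not called (limma adjusted p = 0.125).

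**Figure D2:**
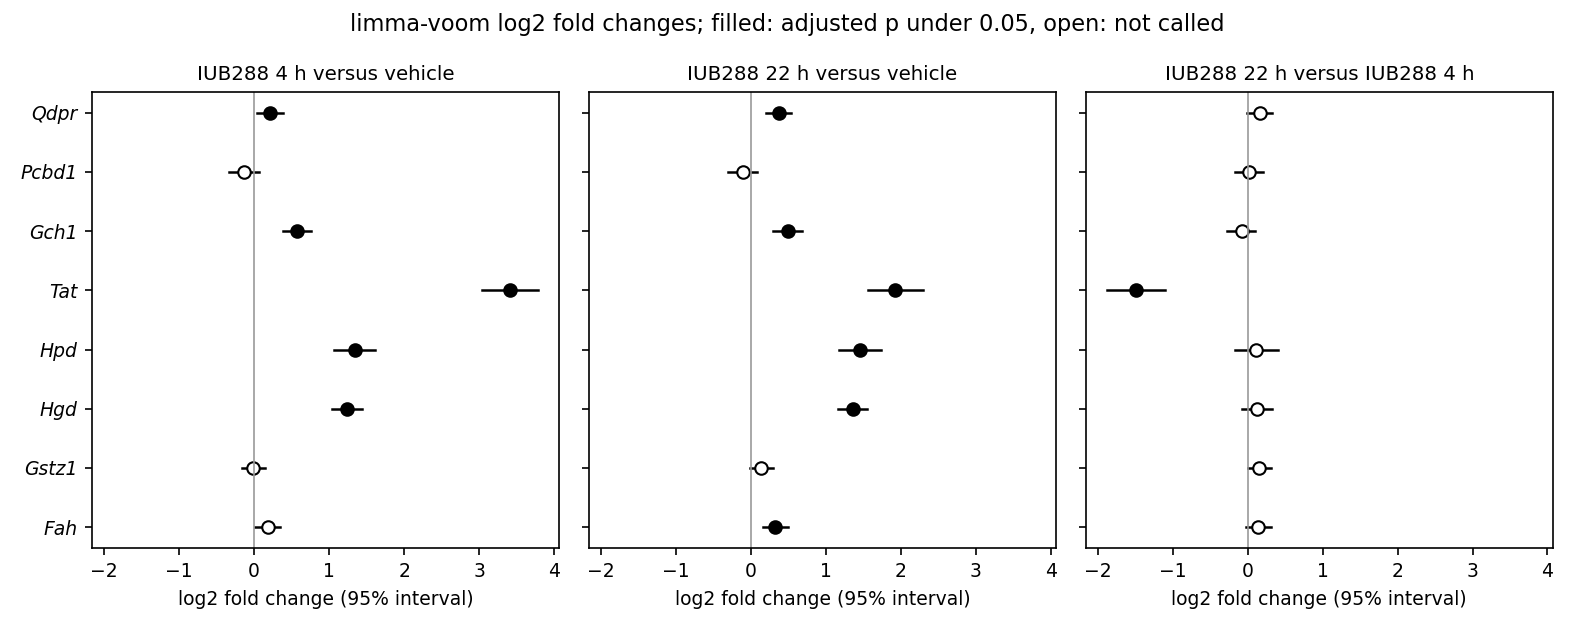
The log2 fold change of each gene (x axis) in the 3 comparisons, with its 95% interval as a line. Filled points have an adjusted p under 0.05 and open points do not. Tat lies at 3.42, 1.92 and -1.49 from left to right, and in the right panel only Tat is filled.

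Among the cofactor enzymes, Gch1, which catalyses the first and usually rate-limiting step of tetrahydrobiopterin synthesis, was higher at both times. It had 133.7, 163.2 and 197.3 CPM at 22 h (lowest, median and highest liver), 147, 170.1 and 207.8 CPM at 4 h and 96.4, 117.6 and 144.3 CPM in vehicle. All 4 h livers and 7 of 8 livers at 22 h lay above every vehicle liver. The log2 fold change was 0.57 ± 0.09 at 4 h (1.49-fold, limma adjusted p = 1.33e-05) and 0.49 ± 0.09 at 22 h (1.40-fold, adjusted p = 0.000204). Between 22 h and 4 h it differed by -0.08 (95% interval -0.27 to 0.10, limma adjusted p = 0.53).

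Qdpr, which reduces the quinonoid dihydropterin left after phenylalanine hydroxylation, was also called higher at both times. Its level was 362.2, 400.6 and 502.1 CPM at 22 h, 328.3, 349.4 and 467.5 CPM at 4 h and 280.6, 331.7 and 357.8 CPM in vehicle (lowest, median and highest liver). The 22 h livers lay wholly above the vehicle livers, but only 3 of 8 livers at 4 h did. At 22 h Qdpr was 1.29-fold above vehicle (log2 0.37 ± 0.08, limma adjusted p = 0.00117). The 4 h difference was 0.21 ± 0.08 (1.16-fold, limma adjusted p = 0.0413). That call was lost when any 1 of 7 livers was left out, namely vehicle replicates 1, 5, 6 and 8 and IUB288 4 h replicates 3, 4 and 8 (limma adjusted p between 0.055 and 0.0997). Without vehicle replicate 1 the difference was 0.18 (limma adjusted p = 0.0767).

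Pcbd1, the dehydratase that also serves as a partner of the transcription factor HNF1, was not called in any comparison. It had 128.4, 141.6 and 195.7 CPM at 22 h, 138.4, 145.2 and 169.6 CPM at 4 h and 119.5, 167.2 and 186.5 CPM in vehicle (lowest, median and highest liver). Its livers overlapped in all 3 comparisons, and the lowest vehicle value was that of replicate 1. The log2 difference from vehicle was -0.13 at 4 h, with a 95% interval from -0.33 to 0.06, and -0.11 at 22 h, from -0.31 to 0.08 (limma adjusted p = 0.247 and 0.359). Without vehicle replicate 1 these were -0.20 and -0.18 (limma adjusted p = 0.0576 and 0.101).

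Levels per length of transcript put the enzymes of the pathway on 1 scale. In CPM per kb, Hpd was the highest member in each group, at 2450 at 22 h, 2290 at 4 h and 899 in vehicle. Tat stood at 820 at 22 h, 2270 at 4 h and 216 in vehicle. In vehicle the order went on from Hpd with Gstz1 at 447, Hgd at 279, Fah at 263, Qdpr at 235, Tat at 216, Pcbd1 at 208 and Gch1 at 42.5 CPM per kb. From Hgd to Pcbd1 neighbours in that order overlapped between livers, while Hpd, Gstz1 and Gch1 did not overlap their neighbours. At 4 h Hpd and Tat overlapped and both lay above all livers of Hgd (664), which was above Gstz1 (444), Fah (298), Qdpr (273), Pcbd1 (189) and Gch1 (63.2). Fah and Qdpr were the only other neighbours that overlapped there. At 22 h the neighbours Tat (820), Hgd (719) and Gstz1 (496) overlapped in sequence, followed by Fah (330) and Qdpr (303), which overlapped, and by Pcbd1 (194) and Gch1 (59.7), which did not.

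**Figure D3:**
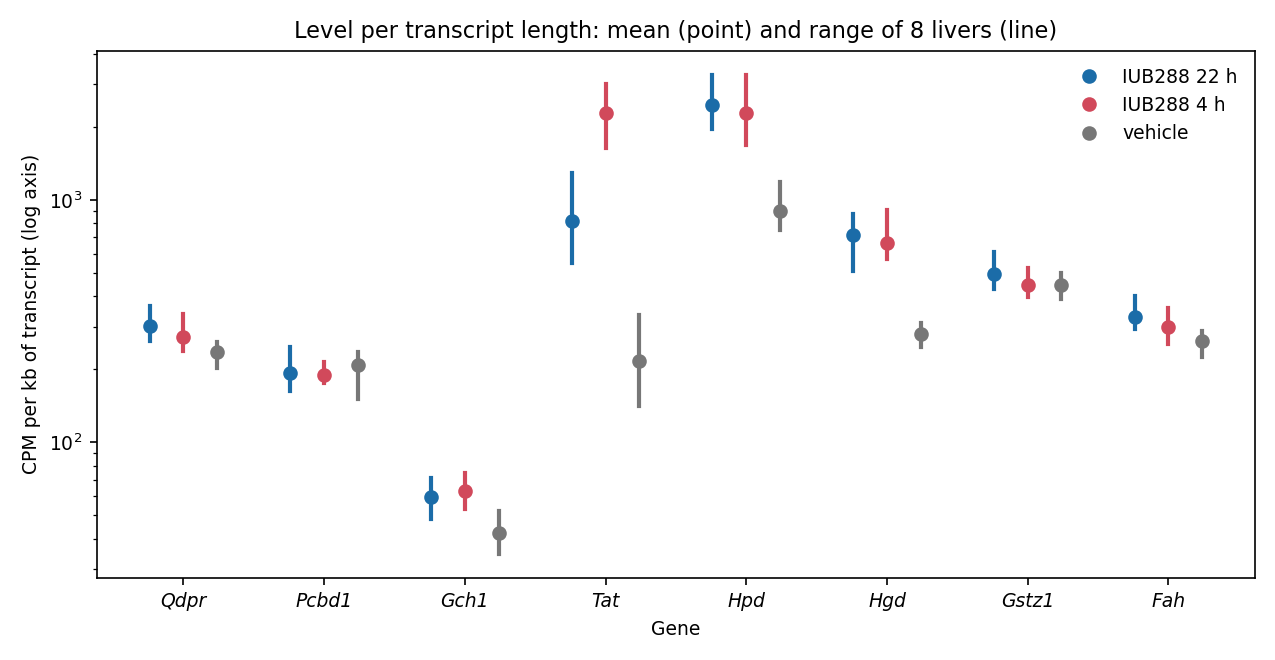
CPM per kb of transcript on a log axis for the 8 genes at IUB288 22 h, IUB288 4 h and in vehicle, from left to right for each gene. Points are means and lines run from the lowest to the highest of 8 livers. Tat overlaps Hpd at 4 h and lies below all Hpd values at 22 h and in vehicle.

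The ratio of Tat to the next enzyme was also taken within each liver, which needs no scaling between libraries. Tat per kb was 0.243 to 0.509 times Hpd per kb at 22 h (median 0.319), 0.887 to 1.13 times at 4 h (median 0.993) and 0.131 to 0.444 times in vehicle (median 0.236). So all 4 h livers had a higher ratio than any other liver, and the 22 h and vehicle livers overlapped. Against Hgd the median ratio was 1.01 at 22 h, 3.40 at 4 h and 0.773 in vehicle, and against Fah it was 2.30 at 22 h, 7.50 at 4 h and 0.821 in vehicle. For Fah the 3 ranges were separate, at 1.77 to 3.78, 6.35 to 8.38 and 0.496 to 1.33 in the same order.

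**Figure D4:**
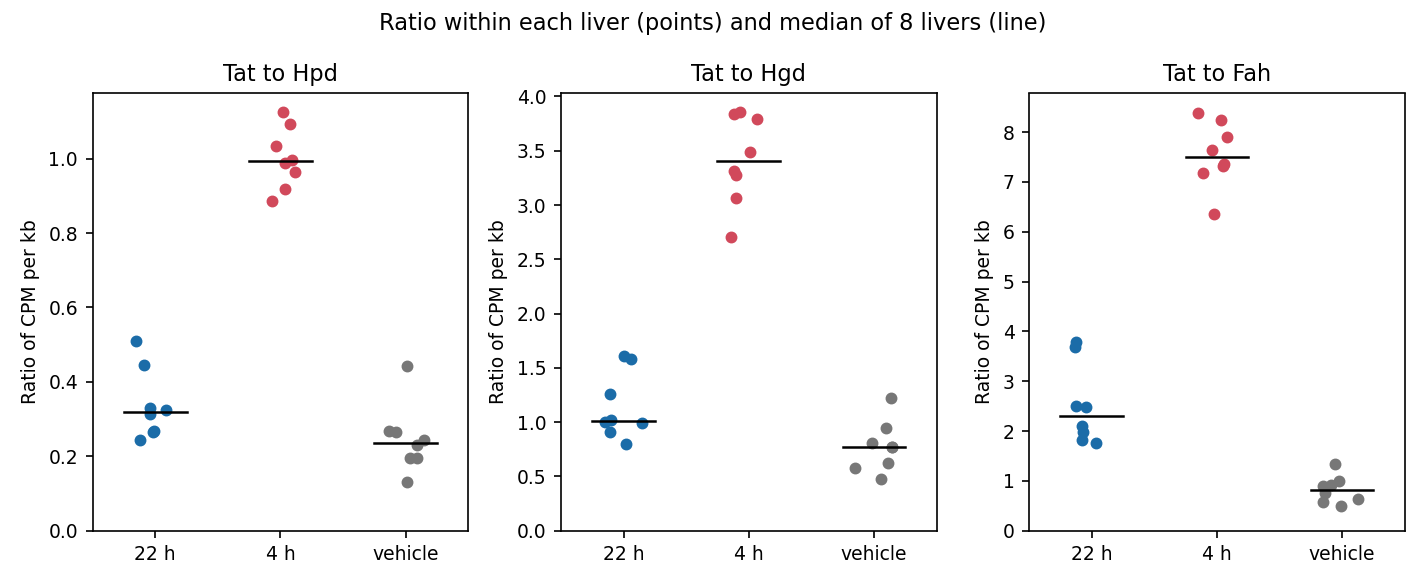
Ratio of Tat to Hpd, Hgd and Fah, each in CPM per kb, within every liver (points) with the median of 8 (line), for IUB288 22 h, IUB288 4 h and vehicle on linear axes from 0. The 4 h livers have the highest ratios in all 3 panels, and for Hpd and Hgd the 22 h and vehicle livers overlap.

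Mouse numbers in the labels fell into 2 sets, 1 to 12 and 13 to 24, with 4 livers of each group in each set, and the labels did not say what the numbers mean. Within the sets Tat was 3.43 and 3.39 above vehicle on the log2 scale at 4 h, Hpd 1.41 and 1.24, and Hgd 1.26 and 1.2, all called by limma. At 22 h these were 1.72 and 2.14 for Tat, 1.27 and 1.64 for Hpd and 1.35 and 1.37 for Hgd, all called. For Tat the 22 h to 4 h difference was -1.71 and -1.25, both called. Gch1 was 0.73 and 0.39 above vehicle at 4 h (limma adjusted p = 0.000743 and 0.0366), and 0.63 and 0.35 at 22 h (limma adjusted p = 0.00579 and 0.0543). The 22 h calls of Fah and Qdpr were lost in the lower-numbered set (log2 0.21 and 0.24, limma adjusted p = 0.175 and 0.185) and held in the other (0.44 and 0.50, limma adjusted p = 0.0132 and 0.0093). The Qdpr 4 h call was lost in both sets (limma adjusted p = 0.323 and 0.164). The difference between the sets was itself not called for any member in any comparison. The lower-numbered set holds vehicle replicate 1, and the part of that library in the values of its set was not tested.

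Other genes of the cofactor pathway did not move in 1 direction. Of 7 tested genes of tetrahydrobiopterin synthesis and recycling, 3 of them members, 2 were called higher and 1 lower at 4 h, and 4 higher and 1 lower at 22 h. Without vehicle replicate 1, 1 was called higher at 4 h and 3 at 22 h, with 1 lower at each time. Pts, the synthase that acts directly after Gch1, was the lower one. It averaged 34.55 ± 3.115 CPM at 22 h, 31.69 ± 1.114 CPM at 4 h and 43.71 ± 3.988 CPM in vehicle (SD, n = 8 each). Its log2 fold change was -0.47 ± 0.06 at 4 h (limma adjusted p = 4.96e-07) and -0.35 ± 0.06 at 22 h (adjusted p = 5.6e-05). Both tested genes of other enzymes that use tetrahydrobiopterin, Agmo and the endothelial Nos3, were called lower at 22 h, with log2 changes of -0.21 and -1.12 (limma adjusted p = 0.0133 and 0.0039). Nos3 had 10.41 CPM in vehicle replicate 1 and averaged 3.207 ± 0.6477 CPM in the other 7 vehicle livers, and without that library its 22 h change was -0.84 (limma adjusted p = 0.00359).

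Aminotransferases that can act on aromatic amino acids included 3 that were called in every comparison. Of 5 tested, 3 were called higher at 4 h and at 22 h and called lower at 22 h than at 4 h: Tat, Got1 and Kyat3. Got1, the cytosolic aspartate aminotransferase, averaged 641 ± 249.4 CPM at 22 h, 1426 ± 466.9 CPM at 4 h and 133.7 ± 30.94 CPM in vehicle. Its log2 fold change was 3.39 at 4 h (limma adjusted p = 3.21e-12) and 2.20 at 22 h (adjusted p = 1.47e-08), with -1.18 between 22 h and 4 h (adjusted p = 0.000143). Kyat3, a kynurenine aminotransferase, was 0.97 above vehicle at 4 h and 0.46 at 22 h (limma adjusted p = 2.71e-06 and 0.0105).

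Of 9 listed transporters of aromatic amino acids 5 were in the count table by symbol, all tested. Of these, 2 were called higher and 1 lower at 4 h, and 1 higher and 1 lower at 22 h. Slc3a2, the heavy chain shared by several amino acid exchangers, averaged 43.3 ± 9.247 CPM at 22 h, 104.4 ± 13.48 CPM at 4 h and 31.89 ± 3.674 CPM in vehicle (log2 1.71 at 4 h, limma adjusted p = 6.84e-12). Its partner Slc7a5 was low, at 1.694 ± 0.5684 CPM at 22 h, 2.769 ± 0.5714 CPM at 4 h and 1.416 ± 0.7189 CPM in vehicle. It was called higher at 4 h (log2 1.15 ± 0.28, limma adjusted p = 0.00192). Slc43a2 was called lower, with log2 changes of -0.39 at 4 h and -0.86 at 22 h (limma adjusted p = 0.0497 and 0.000301). Without vehicle replicate 1 its 4 h change was -0.36 and was not called (limma adjusted p = 0.0785), which left 2 transporters higher and 0 lower at 4 h.

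The products of Fah enter other pathways. Of 8 genes listed for the use of fumarate and acetoacetate or for nearby steps, 5 were in the count table, all tested. At each time against vehicle 3 were called higher, Fh1 and malate dehydrogenase genes, and 2 lower. Fh1, the fumarase, averaged 349.1 ± 57.8 CPM at 22 h, 637.1 ± 108.3 CPM at 4 h and 189.5 ± 40.25 CPM in vehicle. It was 1.76 above vehicle on the log2 scale at 4 h and 0.89 at 22 h (limma adjusted p = 8.96e-12 and 1.85e-06). Fh1 had 285.9 CPM in vehicle replicate 1 and averaged 175.7 ± 10.92 CPM (SD) in the other vehicle livers. Without that library its changes were 1.84 and 0.98. Mdh2, a malate dehydrogenase gene, had 399.4 CPM there and averaged 148.8 ± 12.21 CPM in the other vehicle livers. The thiolase genes Acat2 and Acat1 were called lower at both times. Acat2 changed by -1.08 at 4 h and -1.28 at 22 h, and Acat1 by -0.35 and -0.31, on the log2 scale (limma adjusted p at most 0.000389).

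Of 13 tested transcription factors and coactivators known to act on genes of this pathway or on liver genes in general, 6 were called higher and 4 lower at 4 h, and 6 higher and none lower at 22 h. Without vehicle replicate 1, 2 were also called lower at 22 h, among them Foxa1, named here after its value was seen (log2 -0.28, limma adjusted p = 0.00808). Crem, a cAMP-responsive modulator, averaged 27.19 ± 2.909 CPM at 22 h, 125.3 ± 21.62 CPM at 4 h and 22.76 ± 2.021 CPM in vehicle. Ppargc1a, a coactivator of fasting genes, averaged 28.23 ± 2.934 CPM at 22 h, 137.1 ± 43.5 CPM at 4 h and 27.26 ± 4.469 CPM in vehicle. They were 2.46 and 2.28 above vehicle at 4 h on the log2 scale (limma adjusted p = 6.07e-16 and 1.47e-12) and fell by 2.20 and 2.24 at 22 h against 4 h (limma adjusted p = 4.46e-15 and 3.67e-12). Cebpa was lower at 4 h (log2 -0.51, limma adjusted p = 1.24e-06). Hnf4a, a regulator of hepatocyte identity, averaged 969 ± 57.66 CPM at 22 h, 857.2 ± 131.5 CPM at 4 h and 577.7 ± 63.23 CPM in vehicle (log2 0.75 at 22 h, limma adjusted p = 1.18e-07).

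Other amino acid pathways were set beside the members. Of 9 tested enzymes of histidine, serine, threonine and glycine breakdown, 7 were called higher at 4 h and 7 at 22 h, none lower, and 6 at 4 h without vehicle replicate 1. Sds, serine dehydratase, averaged 208.5 ± 83.78 CPM at 22 h, 339.1 ± 105.9 CPM at 4 h and 78.52 ± 26.23 CPM in vehicle. Of 8 urea cycle genes, 6 were called higher at each time and none lower. Without vehicle replicate 1, 1 was called lower at 4 h, Otc, named after its value was seen (log2 -0.25, limma adjusted p = 0.0164). Ass1, argininosuccinate synthase, averaged 2688 ± 465.4 CPM at 22 h, 2338 ± 457.3 CPM at 4 h and 772.3 ± 138.1 CPM in vehicle, and the ornithine carrier Slc25a15 averaged 691.4 ± 126 CPM at 22 h, 1677 ± 345.7 CPM at 4 h and 394.2 ± 40.45 CPM in vehicle. Of 8 listed tryptophan breakdown genes only 3 were in the count table by symbol, all tested. Of these, 1 was called higher at both times, Acmsd, with log2 changes of 3.11 at 4 h and 2.89 at 22 h (limma adjusted p = 5.13e-10 and 7.05e-09).

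The genes whose pattern over the 24 livers was most like each member were found by the root mean square difference of z-scored log2 CPM, among 5182 candidates of at least 10 CPM. Closest to Tat were Epb41 (0.206), Got1 (0.229) and St3gal1 (0.244). Closest to Hpd were Gnmt (0.144), the glycine methyltransferase, Cth (0.199) and Sult1a1 (0.217), and closest to Hgd were Fbp1 (0.185), fructose bisphosphatase, Gls2 (0.186) and Cth (0.195). Hpd and Hgd differed by 0.22 from each other, the smallest of the 28 pairs of members, while Tat differed by 0.604 from Hpd and 0.576 from Hgd. Fah was closest to Ttc36 (0.288), Apoh (0.337) and F10 (0.346), and Qdpr to Apoc1 (0.398), Serpinf1 (0.404) and Fah (0.482). Among the closest to Gch1 were Ugt2b5 (0.405) and Lgr4 (0.416). Closest to Gstz1 were Il1rap (0.393), Proc (0.406) and Slc9a3r1 (0.448), and closest to Pcbd1 were Abhd3 (0.47), Apoc3 (0.497) and Shmt2 (0.556). These distances describe these livers and carry no test.

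Markers of other liver cells moved with the groups. Of 8 tested endothelial markers 8 were called lower at 22 h and 3 at 4 h, and their sum ran from 207 to 518 CPM at 22 h, 470 to 547 CPM at 4 h and 387 to 763 CPM in vehicle. Of 8 stellate and fibroblast markers 7 were lower at 22 h and 5 at 4 h, with sums of 217 to 658 CPM at 22 h, 399 to 687 CPM at 4 h and 729 to 1370 CPM in vehicle, or 729 to 1070 CPM in vehicle without replicate 1. Of 10 Kupffer cell and macrophage markers 6 were lower at 22 h and 3 at 4 h, with sums of 147 to 653 CPM at 22 h, 337 to 586 CPM at 4 h and 372 to 1130 CPM in vehicle. Of 5 tested red cell genes 4 were lower and 1 higher at each time, with a median log2 change of -2.20 at 22 h and -1.17 at 4 h. The 6 red cell genes in the count table summed to 123 to 214 CPM at 22 h, 181 to 280 CPM at 4 h and 213 to 471 CPM in vehicle. Of 7 tested lymphocyte markers 5 were lower at 22 h and 2 at 4 h, or 3 and 1 without vehicle replicate 1. The 8 lymphocyte markers in the count table summed to 16.3 to 53.9 CPM at 22 h, 30.3 to 50.3 CPM at 4 h and 39.9 to 70.7 CPM in vehicle. Of 6 cholangiocyte markers 2 were lower at each time, with sums of 71.8 to 177 CPM at 22 h, 61.6 to 250 CPM at 4 h and 94.5 to 532 CPM in vehicle, or 194 to 532 CPM in vehicle without replicate 1. Of 3 tested adipocyte markers 3 were lower at 22 h and 2 at 4 h, or 3 and 3 without vehicle replicate 1. The 7 adipocyte markers in the count table summed to 13.3 to 29.4 CPM at 22 h, 14.7 to 40.4 CPM at 4 h and 44.2 to 75.7 CPM in the vehicle livers other than replicate 1. In the lymphocyte list 1 marker was at 0 in all 22 h livers, and no other marker of these lists was at 0 in a whole group. Of 10 hepatocyte markers, 5 were called higher and 4 lower at 22 h, and 4 higher and 5 lower at 4 h. Their part in the members' values was not tested.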

How the data were processed

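The series held RNA-seq of frozen mouse liver, with RNA from the miRNeasy Mini Kit and libraries from the KAPA mRNA HyperPrep kit, per the labels' protocols. The submitters' processing notes name cutadapt, GSNAP and the build GRCm38. Their versions, the counting tool, the annotation and the strand setting are not given in the sources used here. The authors deposited 1 table of whole-number read counts per gene for 24 libraries, with 22355 genes. All columns of per-sample values were used.

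The filter on low expression required about 10 counts in at least 1 group's number of livers and a total of 15 (11508 genes, 99.92% of counts). Counts were TMM-scaled and tested with limma-voom (limma 3.58.1, R 4.3.3), all 24 livers in 1 model of 3 group means with 21 residual degrees of freedom, and p-values were adjusted by Benjamini-Hochberg over all genes tested, with a threshold of 0.05. The design named a quasi-likelihood count test first, but the quoted table layout was not accepted as counts by the unit check, so limma-voom, its stated replacement, was used. The model was tested on simulated data.

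CPM per kb used the longest GENCODE transcript that GENCODE pairs with a RefSeq transcript of the gene. Within-group library pairs differed by more than counting noise (chi-square per degree of freedom 21.7 to 352 over 84 pairs). The named genes were all 8 members, at most 3 genes of smallest p per list and comparison, and the 3 nearest genes of each member; a few of these are not reported here. Members and lists were chosen with earlier results of these data known. Several lists held genes whose symbols were absent from the count table, and these could not be tested. Alternatives covered scaling, filter, samples in the fit, blocks, sample weights, single libraries and an exact permutation test.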

Additional observations from a re-analysis of the deposited data

Results flagged for a closer look

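Tat differed between the IUB288 times: its 22 h change minus its 4 h change was -1.49 on the log2 scale (limma adjusted p = 9.23e-07), with all 8 livers at 22 h below every liver at 4 h. The within-set values were -1.71 and -1.25.

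Pcbd1 in vehicle replicate 1, at 119.5 CPM, lay far below the other 7 vehicle livers, with a gap to the nearest of 0.63 of the group's range. That gap exceeds Dixon's critical value for 8 samples. This was 1 of 24 groups of member values examined, and chance gives such a gap in about 1 group in 20. The 24 groups share libraries, so they are not independent. Vehicle replicate 1 was also the lowest vehicle liver for Qdpr, Gch1, Hgd, Gstz1 and Fah, but not for Tat and Hpd. Its hepatocyte markers summed to 74900 CPM, against 89000 CPM or more in the other vehicle livers. The same library held Ucp1 at 1390 CPM and the adipocyte markers at 4320 CPM. The part of these in the Pcbd1 value was not tested.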

How the results depend on the processing

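Over 264 member results recomputed under other scalings, filters, samples, blocks, label sets, weights and the exact permutation test, 243 kept their direction and side of the threshold, 9 lost a call, 7 gained one and 5 changed sign. Over 576 results with 1 liver left out, 559 did, 7 lost a call (all Qdpr at 4 h), 2 gained one (Fah at 4 h) and 8 changed sign. All sign changes were in differences not called either way. In the lower-numbered label set they were 0.03 for Gstz1 at 4 h and, between 22 h and 4 h, -0.07 for Pcbd1, -0.14 for Hpd and -0.05 for Fah. Sample quality weights gave -0.02 for Pcbd1 between the times. With 1 liver left out, Gstz1 at 4 h ran from -0.04 to 0.01 and Pcbd1 between the times from -0.03 to 0.05. Tat, Hpd and Hgd kept every call against vehicle. The causes of the changes were not tested.

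The Qdpr call at 4 h was also lost with library totals only (limma adjusted p = 0.0501), a stricter filter (0.0838), only the 16 livers compared (0.0557) and sample quality weights (0.0757). With library totals only, Qdpr, Gstz1 and Fah were called higher at 22 h than at 4 h (log2 0.19, 0.19 and 0.18). Sample quality weights called Pcbd1 lower, by -0.20 at 4 h and -0.22 at 22 h (limma adjusted p = 0.0123 and 0.0143). The exact permutation test, whose p was not adjusted, gave p = 0.0413 for Fah at 4 h, counted above as a gained call. The unadjusted limma p there was 0.037. The smallest possible permutation p was 0.000155. Fah was called higher at 22 h than at 4 h in the higher-numbered label set (0.37, limma adjusted p = 0.0359).

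Genes called at 4 h fell to 2908 and 3166 within the label sets, which hold fewer livers, and those at 22 h and between the times to 1229 and 1473 in the lower-numbered set, against 3240 and 2514 in the other. Vehicle replicate 1 is in the lower-numbered set, and its part in these counts was not tested. Leaving out 1 liver gave 4743 to 5253, 3846 to 4281 and 3081 to 3724 calls in the 3 comparisons. Correlation of the livers showed no clear sign that replicate numbers pair them, though it cannot exclude pairing. The 24 same-numbered pairs had r from -0.219 to 0.134, 2 over 0.1, and 4 libraries correlated best with their own number. With the replicate block 5425, 4388 and 3433 genes were called, and no member's call changed. The edgeR and DESeq2 alternatives were not run, as the table was not accepted as counts. With at least 13.99 M counts per library, every member had at least 96.4 CPM in each liver.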
